A study of Eublepharis macularius with 8 samples.

Results

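EDA, EDAR, EDARADD and FOXI3 were taken from the deposited gene table by exact symbol, 1 row each, which makes 4 of its 22488 rows. All 4 were among the 15491 genes left by the filter on low counts. The teeth came from adult leopard geckos (Eublepharis macularius), lizards that shed and renew their teeth for life. The study set functional teeth, those in use, against developing teeth, which grow to replace them, with 4 libraries of each. In both groups, replicates 1 to 3 were female with 3 teeth per sample. Replicate 4 was male, with 10 functional or 11 developing teeth. The labels speak of biological replicates but do not say whether each came from its own animal, so the p-values reflect how far these samples spread, which may be technical. No treatment, strain or genotype is labelled. Each sample is whole teeth, so epithelium, dental mesenchyme, odontoclasts and other cells were measured as 1 mixture.

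Ectodysplasin is a ligand of the tumour necrosis factor family that teeth, hair, feathers, scales and skin glands share. EDA encodes the ligand, EDAR its receptor in ectodermal placodes and in the enamel knots of mouse tooth germs, and EDARADD the adaptor that binds the receptor's death domain and passes the signal to NF-kappaB. FOXI3 encodes a forkhead transcription factor of ectodermal placodes and dental epithelium, which in mice lies downstream of ectodysplasin. Loss of EDA, EDAR or EDARADD in people causes missing and misshapen teeth, and a FOXI3 mutation underlies hairless dog breeds that lack teeth.

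Libraries held between 14144573 and 30935120 estimated counts, and RNA integrity numbers lay between 8.8 and 9.6. Type I collagen, summed over COL1A1 and COL1A2, took between 29.2% and 33.2% of counts in functional libraries. In developing replicates 1 to 4 they took 20.6%, 18.6%, 5.73% and 4.37%, so that developing replicates 3 and 4 stood apart from 1 and 2. The teeth were checked against markers. The 6 ameloblast genes in the table summed to between 55.2 and 1239 CPM (counts per 1e6 of the library, scaled by TMM) in functional libraries and between 5208 and 33411 CPM in developing libraries. Of the functional libraries, replicate 1 was the highest, and AMELX, the amelogenin gene, stood at 470.0 CPM there against 3.56 to 3.91 CPM in functional replicates 2 to 4. The 7 odontoclast genes summed to 343, 440, 633 and 1790 CPM in functional replicates 1 to 4, the highest being the male library. In developing libraries they summed to between 109 and 287 CPM. A skeletal muscle list, with 3 of 6 genes in the table, was at most 1.91 CPM in functional libraries and reached 60.4 CPM in developing replicate 3. There ACTA1 alone had 59.4 CPM, while CKM had 0.93 CPM and TNNT3 had 0 counts.

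The receptor gene and FOXI3 were lower in functional teeth on average, by 4.52-fold and 4.02-fold, and neither passed the test. With TMM scaling the ligand and adaptor genes were 1.21-fold and 1.27-fold higher in functional teeth and did not pass either. By counts over plain library totals both would be lower on average in functional teeth, so their direction rests on the scaling. Of the 4 members, 0 passed edgeR's quasi-likelihood test at an adjusted p under 0.05, where 2.01% of all tested genes were called lower and 0.8% higher in functional teeth. At an unadjusted p under 0.05, 2 of the 4 were lower (EDAR and FOXI3) and 0 higher, beside 12.8% of all tested genes lower and 9.53% higher. DESeq2's Wald test called EDAR and FOXI3 lower, where it called 6.3% of all genes lower and 4.74% higher. With TMM scaling, for 1 of the 4, EDAR, no functional library reached a developing one, and it was lower in functional teeth. By plain library totals this would hold for FOXI3 too. Over all tested genes, with TMM scaling, 8.6% had every functional library below every developing one and 6.42% had every functional library above.

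With TMM scaling EDA, the ligand gene, was slightly higher on average in functional teeth and did not pass the test. Functional replicates 1 to 4 had 45.8, 40.8, 39.8 and 47.1 CPM, and developing replicates 1 to 4 had 34.0, 44.8, 32.5 and 32.5 CPM. In these scaled values of EDA, 3 of the developing libraries lay below every functional library, and developing replicate 2 lay within the functional range. EDA had a mean of 43.4 ± 3.62 CPM over functional libraries, against 35.9 ± 5.92 CPM over developing ones (SD, n = 4 each). Its log2 fold change, functional minus developing, was 0.27 ± 0.14 (SE), with an adjusted p of 0.285 and a 95% interval from -0.04 to 0.58. EDA varied least of the members, with a highest library 1.18 times the lowest in functional teeth and 1.38 times in developing teeth. It was also the deepest, with 628 to 1083 counts in each library. The ligand is made in splice forms that differ in receptor, A1 for EDAR and A2 for EDA2R, and a count per gene does not separate them. FURIN encodes a protease that cuts the ligand free of the cell surface. It had a mean of 144 CPM over functional libraries, against 121 CPM over developing ones, and did not pass (adjusted p = 0.374). By counts over plain library totals the order of these FURIN means would be reversed.

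EDAR, the receptor gene, had 5.59, 2.19, 8.47 and 6.39 CPM in functional replicates 1 to 4, and 11.5, 10.9, 38.5 and 41.4 CPM in developing replicates 1 to 4. The groups did not overlap, and within developing teeth replicates 3 and 4 were over 3 times as high as 1 and 2. The means were 5.66 ± 2.61 CPM over functional libraries and 25.6 ± 16.7 CPM over developing ones (SD, n = 4 each). EDAR had a log2 fold change of -2.18 ± 0.58 (SE), with a 95% interval from -3.50 to -0.86 and an adjusted p of 0.0822. It passed with the replicate number as a block (-2.07 ± 0.29, adjusted p = 0.0462) and in DESeq2 (-2.16 ± 0.57, adjusted p = 0.00294), and it did not pass in any of the 8 fits that left out 1 library (adjusted p between 0.0556 and 0.210). Within the numbers 1 to 4, functional minus developing differed by -1.03, -2.26, -2.17 and -2.68 in log2 CPM. It was lower in 4 of 4, which follows from the groups not overlapping. With the male pair left out EDAR stood at -1.91 ± 0.67 on the log2 scale (adjusted p = 0.252).

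FOXI3 had 9.43, 4.02, 5.17 and 5.35 CPM in functional replicates 1 to 4, and 8.24, 14.5, 27.0 and 46.3 CPM in developing replicates 1 to 4. With TMM scaling functional replicate 1 lay above developing replicate 1, and these were the libraries that made the groups overlap. Functional replicate 1 had 167 counts and developing replicate 1 had 201. By counts over plain library totals their order would be reversed, and the groups would not overlap. Means were 5.99 ± 2.37 CPM over functional libraries and 24.0 ± 16.8 CPM over developing ones (SD, n = 4 each). FOXI3 had a log2 fold change of -2.01 ± 0.53 (SE), with a 95% interval from -3.22 to -0.79 and an adjusted p of 0.0820. It passed in DESeq2 (adjusted p = 0.00363) and without developing replicate 1 (-2.26 ± 0.43, adjusted p = 0.0447), and did not pass with the replicate block (-1.83 ± 0.56, adjusted p = 0.127). Within the numbers 1 to 4 it differed by 0.19, -1.83, -2.37 and -3.09 in TMM-scaled log2 CPM, lower in 3 of 4. With females alone it stood at -1.42 ± 0.50 (adjusted p = 0.256), and without developing replicate 4 it was -1.46 ± 0.44. The male pair is 1 library of each group and also differs in teeth per sample, so sex, pooling and that pair cannot be told apart.

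EDARADD, the adaptor gene, was the member with the fewest counts. Functional replicates 1 to 4 had 3.33, 1.95, 2.84 and 1.91 CPM, and developing replicates 1 to 4 had 1.27, 2.44, 2.54 and 1.65 CPM. The groups overlapped, with developing replicate 1 the lowest and functional replicate 1 the highest of the 8. EDARADD had a mean of 2.51 ± 0.70 CPM over functional libraries, against 1.98 ± 0.61 CPM over developing ones (SD, n = 4 each). By counts over plain library totals, without TMM scaling, the order of these means would be reversed. The log2 fold change was 0.34 ± 0.32 (SE), with an adjusted p of 0.565. Its 95% interval, from -0.39 to 1.08, includes 0. The counts lay between 31 and 59, and at 31 counts an exact Poisson interval (95%, counting error alone) runs from 21.1 to 44.0. The SD between libraries, counting error included, was 27.8% of the mean in functional and 31.1% in developing teeth. Small differences were not detectable at this depth and spread.

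**Figure D1:**
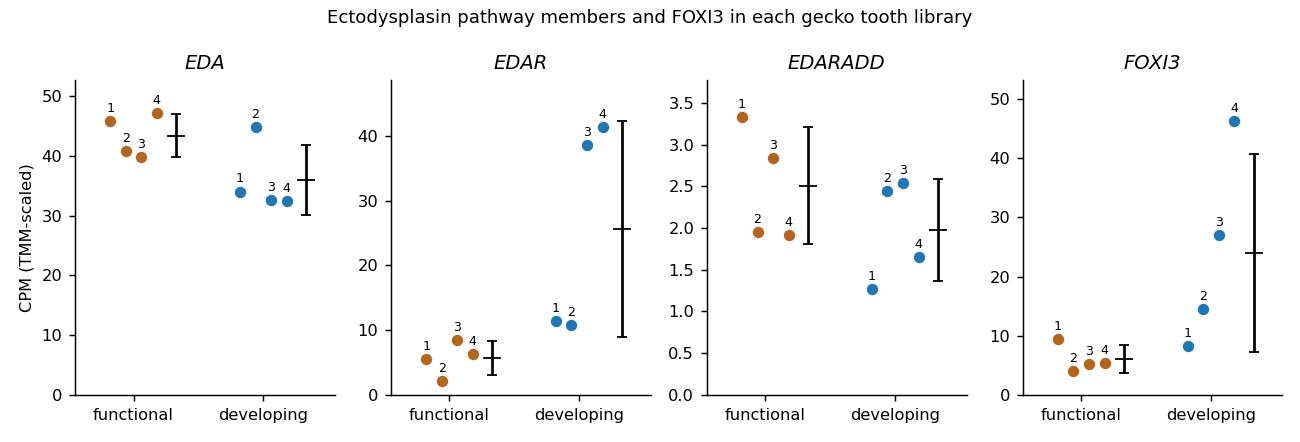
TMM-scaled CPM of the 4 members in each library, functional left of developing, on linear axes from 0. Points are libraries with their replicate number, and black bars are mean ± SD (n = 4). In these scaled values EDAR separates the groups (at most 8.47 CPM in functional, at least 10.9 CPM in developing teeth), and FOXI3, EDA and EDARADD overlap. By plain library totals FOXI3 would not overlap.

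EDAR counts were set against those of its ligand and adaptor genes in the same library, where library size cancels. EDAR had 0.12, 0.054, 0.21 and 0.14 counts per count of EDA in functional replicates 1 to 4. In developing replicates 1 to 4 the ratio was 0.34, 0.24, 1.18 and 1.28. Every functional library was below every developing one, as for EDAR alone, so this is not a separate result. Set against EDARADD, the ratio was 2.28 ± 1.05 in functional and 13.4 ± 8.91 in developing teeth (SD, n = 4 each), again without overlap. FOXI3 counts per EDAR count were 1.24 ± 0.61 in functional and 0.97 ± 0.31 in developing teeth and overlapped. These ratios are not per length and compare libraries, not genes.

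EDAR and FOXI3 belong to epithelium, so their values stand here beside epithelial markers. In RNA of whole teeth, fewer epithelial cells and less RNA per epithelial cell cannot be told apart. Of 16 listed epithelial markers, 11 were in the table and none of the 11 was at 0. They summed to 3465, 2177, 1743 and 2315 CPM in functional replicates 1 to 4, and to 1508, 2577, 3644 and 3681 CPM in developing replicates 1 to 4. The sums overlapped, and 1 of the 11, the epithelial transcription factor gene ELF3, rose in functional teeth (by 2.29 ± 0.42 on the log2 scale, adjusted p = 0.0382). Per 1000 CPM of these markers, EDAR was at 1.61, 1.01, 4.86 and 2.76 CPM in functional replicates 1 to 4, and at 7.61, 4.22, 10.6 and 11.3 CPM in developing replicates 1 to 4. Functional replicate 3 lay above developing replicate 2, so this ratio overlapped. FOXI3 was at 2.46 ± 0.49 CPM per 1000 marker CPM in functional and 7.76 ± 3.33 in developing teeth (SD, n = 4 each), without overlap. Set against each of the 11 markers in turn, a comparison added after the values were seen, the ratio of EDAR was lower in functional teeth without overlap for 4 markers and overlapped for 7. The ratio of FOXI3 was lower without overlap for 9 and overlapped for 2, ITGB4 and CLDN1. With the adhesion gene EPCAM the EDAR ratio was 0.054 ± 0.031 in functional and 0.25 ± 0.13 in developing teeth, and with the tight junction gene CLDN1 it was 0.067 ± 0.049 in functional and 0.065 ± 0.022 in developing teeth (SD, n = 4 each). The mean EDAR ratio was lower in functional teeth for 10 of the 11 markers, CLDN1 being the exception. The size of the difference and the overlap thus depended on the marker. The part of epithelial content in the differences of EDAR and FOXI3 was not tested.

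**Figure D2:**
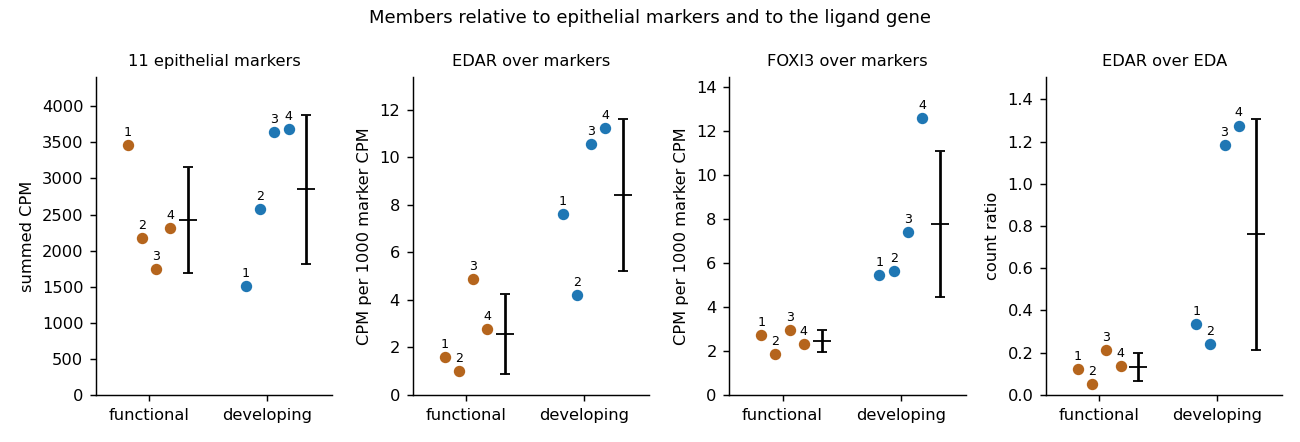
From left, the summed CPM of 11 epithelial markers, EDAR and FOXI3 as CPM per 1000 CPM of those markers, and the ratio of EDAR to EDA counts, functional left of developing, on linear axes from 0. Points are libraries with their replicate number and bars are mean ± SD (n = 4). The marker sums overlap between groups, and the FOXI3 and EDAR-to-EDA ratios do not.

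Other genes of the pathway were taken from lists of receptors and adaptors, the NF-kappaB branch, targets and upstream genes reported in mice, FOXI relatives and enamel knot signals. Without the members these held 52 genes, of which 48 were in the table and 39 were tested. In edgeR's test 5 of the 39 fell (TNFRSF19, TNFAIP3, PTHLH, FGF3 and FGF9) and 0 rose, beside 2.01% and 0.8% of all genes. At an unadjusted p under 0.05 there were 13 lower and 1 higher, beside 12.8% and 9.53% of all tested genes. DESeq2 called 8 lower and 0 higher, beside 6.3% and 4.74% of all genes. The median log2 fold change of the 39 was -0.16, and 0.0013 over all tested genes. Earlier results on some of these genes were known when the lists were chosen, so their direction is not independent evidence. The count of 5 became 0 without functional replicate 2, 3 or 4 or in the female libraries alone, and 1 without developing replicate 3 or 4. With the replicate block it was 3, FGF9, TNFAIP3 and FST.

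Among other receptors, TNFRSF19 fell and EDA2R followed a similar order of libraries without passing. TNFRSF19 encodes TROY, a relative of EDAR expressed in mouse epithelium. It had 56.0, 52.5, 39.9 and 40.9 CPM in functional replicates 1 to 4, and 166, 157, 384 and 427 CPM in developing replicates 1 to 4. The groups were far apart, and developing replicates 3 and 4 were again the highest. Its log2 fold change was -2.58 ± 0.37 (adjusted p = 0.0251, but 0.0565 under the block). EDA2R, the receptor of the A2 form, had 25.2, 11.7, 11.3 and 13.7 CPM in functional replicates 1 to 4, and 22.9, 29.1, 50.3 and 59.4 CPM in developing replicates 1 to 4. With TMM scaling functional replicate 1 exceeded developing replicate 1, as for FOXI3, and by plain library totals it would not. On the log2 scale EDA2R differed by -1.39 ± 0.37 (adjusted p = 0.0845, and 0.0108 in DESeq2). Deposited values of EDA2R, TNFRSF19 and FOXI3 (developing replicates 3 and 4) lay over 0.01 from a whole number (in 8, 7 and 2 of the 8 libraries). Such fractions can arise where kallisto divides reads between transcripts of different genes, so these levels are less certain.

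The adaptors and kinases below the receptor did not pass. In the list of receptors and adaptors 9 of 12 genes were tested and the median log2 fold change was -0.29. Of these 1 fell (TNFRSF19) and 0 rose, beside 2.01% and 0.8% of all tested genes. TRAF6, the ubiquitin ligase that binds EDARADD, had a mean of 7.99 ± 1.12 CPM over functional libraries, against 9.79 ± 1.73 CPM over developing ones (log2 fold change -0.29 ± 0.18, adjusted p = 0.383). MAP3K7, the kinase TAK1 that acts after TRAF6, differed by 0.12 ± 0.11 on that scale (adjusted p = 0.569). By plain library totals MAP3K7 would be lower on average in functional teeth. TRAF2 and TRAF3, of the same adaptor family, had values of -0.68 ± 0.20 and -0.87 ± 0.32 (adjusted p = 0.0999 and 0.163). TRAF3 did not overlap between groups, as 8.6% of all tested genes did not in that direction.

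In the NF-kappaB branch, all 13 listed genes were tested, with a median log2 fold change of 0.083 at TMM scaling. Of these 1 fell and 0 rose, beside 2.01% and 0.8% of all tested genes. The gene that fell was TNFAIP3, which encodes the deubiquitinase A20, an NF-kappaB target that restrains the pathway. It had 7.79, 8.03, 8.11 and 10.0 CPM in functional replicates 1 to 4, and 17.4, 16.2, 19.0 and 24.8 CPM in developing replicates 1 to 4. The groups did not overlap. Its log2 fold change was -1.19 ± 0.17 (adjusted p = 0.0250). NFKBIA, the gene of the inhibitor IkappaB-alpha and another NF-kappaB target, differed in the other direction without passing. It had 102, 62.1, 61.9 and 40.3 CPM in functional replicates 1 to 4, and 40.2, 63.0, 37.5 and 28.8 CPM in developing replicates 1 to 4. The groups overlapped, and the log2 fold change was 0.65 ± 0.33 (adjusted p = 0.277). The kinase genes IKBKB, CHUK and IKBKG and the subunit gene RELA had log2 fold changes of 0.40, 0.0044, 0.30 and 0.080, and none passed. By counts over plain library totals each of these would be lower on average in functional teeth, so their direction rests on the scaling.

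**Figure D3:**
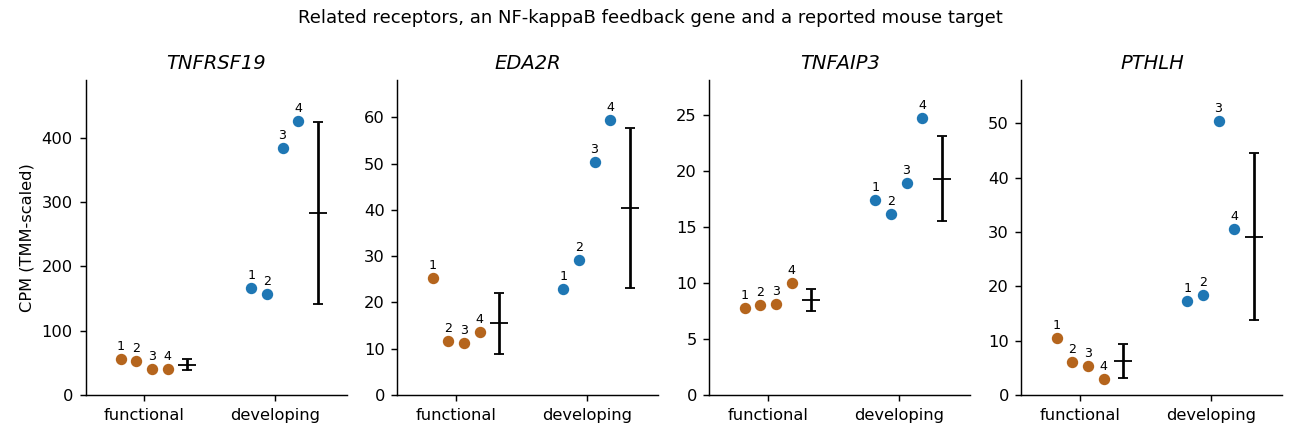
TMM-scaled CPM of TNFRSF19, EDA2R, TNFAIP3 and PTHLH in each library, functional left of developing, on linear axes from 0. Points are libraries with their replicate number and bars are mean ± SD (n = 4). In these scaled values the groups are apart for TNFRSF19, TNFAIP3 and PTHLH, and functional replicate 1 overlaps developing replicate 1 for EDA2R.

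Of the genes reported in mice to rise with EDAR signalling, 6 of 11 were tested, with a median log2 fold change of -1.69. Of these 1 fell and 0 rose, beside 2.01% and 0.8% of all tested genes. The gene that fell was PTHLH, which encodes parathyroid hormone-related protein, a signal needed for tooth eruption in mice. It had 10.4, 6.04, 5.27 and 2.91 CPM in functional replicates 1 to 4, and 17.2, 18.5, 50.4 and 30.6 CPM in developing replicates 1 to 4. The groups did not overlap. On the log2 scale PTHLH fell by 2.24 ± 0.47 (adjusted p = 0.0477, but 0.0831 under the block). SHH, the hedgehog ligand of the enamel knot, had 14.1, 0.53, 0.57 and 0.087 CPM in functional replicates 1 to 4, and 164, 285, 523 and 588 CPM in developing replicates 1 to 4 (adjusted p = 0.0612, but 1.18e-05 in DESeq2). FST, which encodes the activin inhibitor follistatin, had at most 5 counts in any functional library and none in functional replicates 2 and 3. It had 0.86, 0.51, 4.87 and 8.15 CPM in developing replicates 1 to 4, against at most 0.22 CPM in functional libraries (adjusted p = 0.0574, but 0.0452 with the replicate block and 5.74e-05 in DESeq2). WNT10A, a Wnt ligand whose loss causes missing teeth in people, had a mean of 40.0 ± 3.86 CPM over functional libraries, against 44.7 ± 14.2 CPM over developing ones (adjusted p = 0.702). CCN2, which encodes a matricellular growth factor-binding protein, differed in the other direction, with 9.13 to 50.1 CPM in functional and 3.38 to 25.3 CPM in developing libraries. The groups overlapped, and the 95% interval of its log2 fold change ran from -0.44 to 2.43 (adjusted p = 0.382). CXCR3, a chemokine receptor gene, had 2.51 to 2.99 CPM in functional and 3.24 to 10.7 CPM in developing libraries (log2 fold change -1.14 ± 0.39, adjusted p = 0.143). It did not overlap, as 8.6% of all tested genes did not in that direction. FGF20, a growth factor of the enamel knot in mice, had 0 counts in all 8 libraries, which allows a level of up to 0.115 to 0.169 CPM, depending on the library (3 counts per library, counting error alone).

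Of the upstream genes 7 of 9 were tested and 0 passed edgeR's test, and DESeq2 called 0. At an unadjusted p under 0.05 there were 2 lower and 0 higher, beside 12.8% and 9.53% of all tested genes. LEF1, a Wnt effector that induces EDA in mice, had 13.3, 13.3, 13.7 and 15.5 CPM in functional replicates 1 to 4, and 17.4, 16.5, 17.3 and 22.7 CPM in developing replicates 1 to 4. The groups did not overlap, as for 8.6% of all tested genes in that direction, though the log2 fold change was small, at -0.40 ± 0.14 (adjusted p = 0.139). TP63, the epithelial transcription factor gene upstream of EDAR in mice, had a mean of 74.1 ± 30.0 CPM over functional libraries, against 68.0 ± 35.9 CPM over developing ones (adjusted p = 0.889). BMP4 and INHBA, signals that act on EDAR in mouse teeth, had log2 fold changes of 0.090 and 0.77, and neither passed. By plain library totals TP63 and BMP4 would be lower on average in functional teeth, and INHBA would remain higher. Of the enamel knot signals 8 of 13 were tested, 2 fell and 0 rose, beside 2.01% and 0.8% of all tested genes. FGF9, made by tooth epithelium, had 0.56 to 0.93 CPM in functional and 2.59 to 6.68 CPM in developing libraries (log2 fold change -2.64 ± 0.36, adjusted p = 0.0224). FGF3, a growth factor of the tooth germ, had at most 0.16 CPM in functional libraries and 1.11, 0.60, 2.95 and 7.77 CPM in developing replicates 1 to 4 (adjusted p = 0.0424, but 0.0730 under the block). The relatives of FOXI3, FOXI1 and FOXI2, had at most 0.087 and 0.23 CPM in any library and were not tested.

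**Figure D4:**
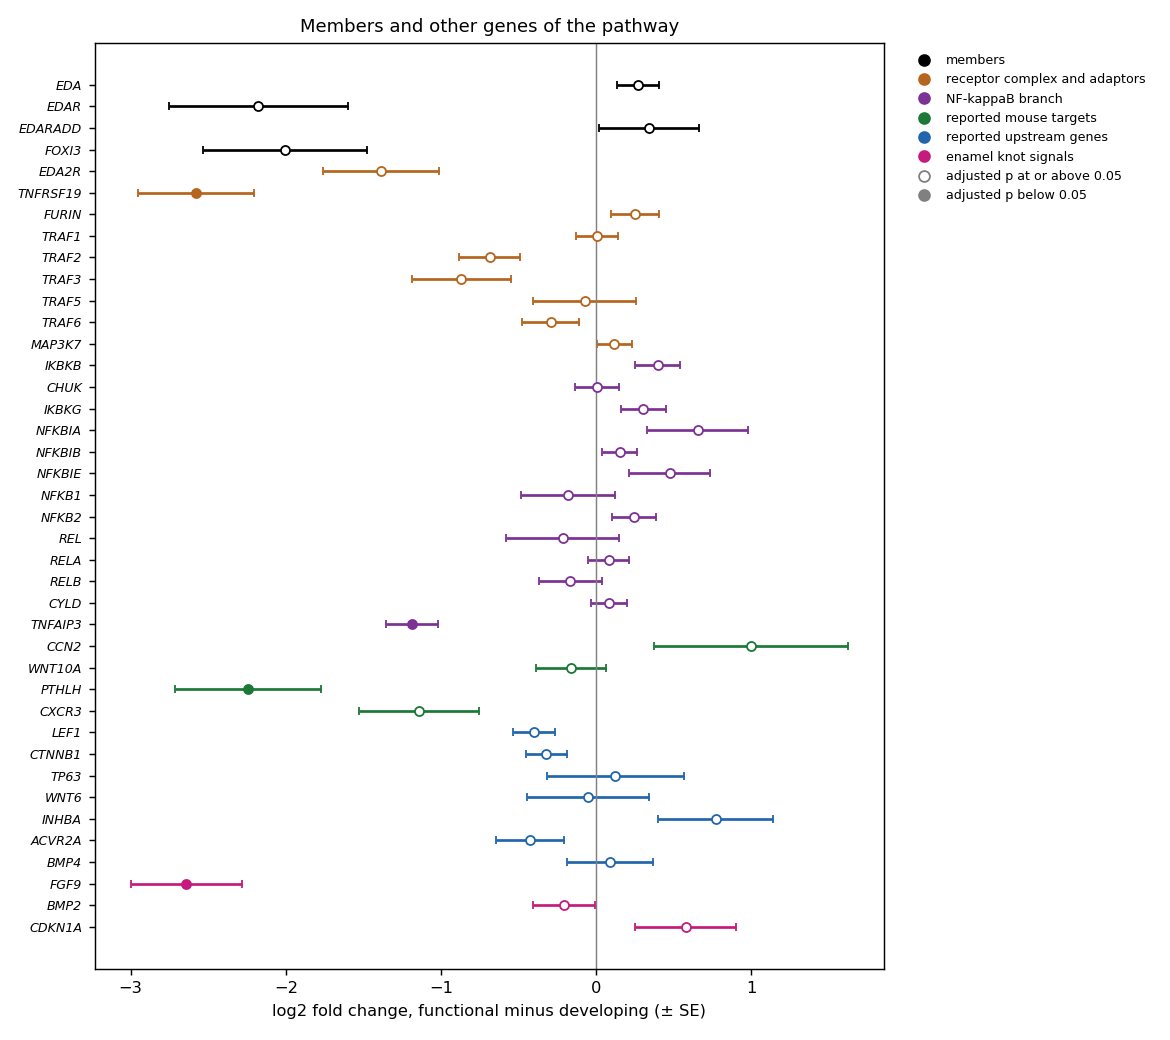
Log2 fold change, functional minus developing, ± SE from edgeR for the 4 members and 36 tested genes of the pathway lists with more than 3 counts in every library, coloured by list (a gene of several lists is shown in the first). Filled points passed at an adjusted p below 0.05. TNFRSF19, TNFAIP3, PTHLH and FGF9 are the filled ones, all below 0.

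Across the 8 libraries EDAR and FOXI3 followed a similar order. Their log2 CPM had a Pearson r of 0.90, while r was -0.72 for EDA with EDAR and -0.15 for EDARADD with EDAR. These values, of TMM-scaled CPM, describe 8 libraries that fall into 2 groups and differ in composition, and they are given without a test. By counts over plain library totals, r would be positive for EDA with EDAR and for EDARADD with EDAR. Among 11387 other genes with a symbol and a mean of at least 1 CPM, those with the highest r to EDAR included CENPT (0.989) and CDCA2 (0.987), which encode a kinetochore protein and a mitotic chromatin protein. For FOXI3 the 3 highest were PLEKHA4 (0.993), BCL9 (0.986), a coactivator of beta-catenin, and SELENOH (0.983). Genes nearest to EDA included the tight junction gene MARVELD3 (0.977) and the histone deacetylase gene HDAC9 (0.959). EDARADD was nearest to TENT2 (0.971), the receptor gene FGFR2 (0.901) and ZNF609 (0.891).

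The level of proliferation genes moved with EDAR and FOXI3. The 9 listed cell cycle genes summed to 63.4, 31.9, 37.6 and 43.5 CPM in functional replicates 1 to 4, and to 107, 85.6, 244 and 226 CPM in developing replicates 1 to 4. None of the 9 was at 0, 8 were tested, and 5 fell and 0 rose, beside 2.01% and 0.8% of all tested genes. Developing replicates 3 and 4, highest for EDAR, were the highest here too. For EDA and EDARADD the r values given next depend on the TMM scaling. The median r of the 8 tested cell cycle genes was 0.91 with EDAR, 0.92 with FOXI3, -0.71 with EDA and -0.19 with EDARADD. For the ameloblast list, 6 of 8 genes tested, it was 0.79 with EDAR and 0.89 with FOXI3. For the 6 dentin genes, COL1A1 and DSPP among them, it was -0.89 with EDAR and -0.86 with FOXI3. For the 11 epithelial markers it was 0.34 with EDAR and 0.60 with FOXI3, and for the 6 dental epithelium genes 0.50 and 0.68. For the 7 odontoclast genes it was -0.57 with EDAR and -0.78 with FOXI3. Over 11387 genes it was 0.0027 with EDAR and -0.0024 with FOXI3. Macrophage genes, 6 of 6 in the table and none at 0, summed to 104, 96.2, 108 and 251 CPM in functional replicates 1 to 4. In developing libraries they summed to between 42.5 and 52.3 CPM, and 4 of the 6 rose in functional teeth, beside 0.8% of all tested genes. The part of these other cell states in the values of EDAR and FOXI3 was not tested.

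Log2 fold changes of the members kept their sign under every alternative run, each of which scaled libraries by TMM or by size factors. No run used plain library totals, by which EDA and EDARADD would be lower on average in functional teeth. The runs therefore do not test that choice. EDAR lay between -2.43 and -1.83 and FOXI3 between -2.30 and -1.42. EDA lay between 0.18 and 0.40, and EDARADD between 0.18 and 0.50.

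**Figure D5:**
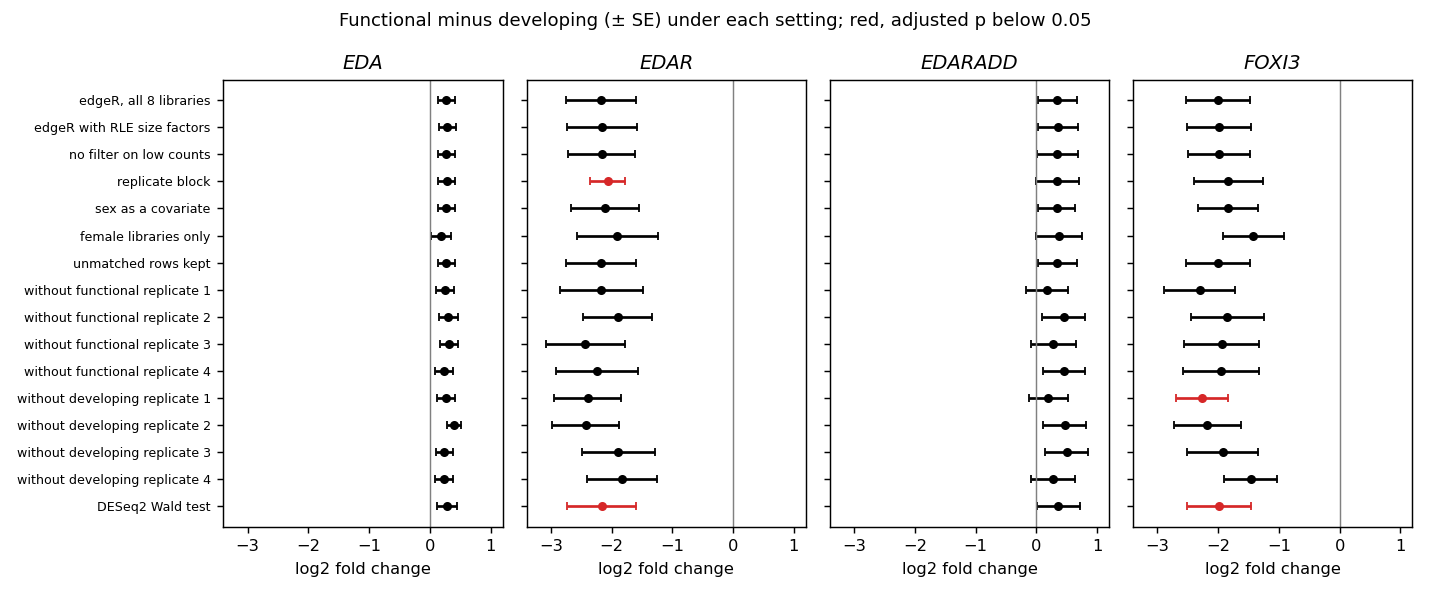
Log2 fold change, functional minus developing, ± SE of each member in the edgeR fit with all 8 libraries and under 15 alternatives, with red for an adjusted p below 0.05. Every fit scaled libraries by TMM or by size factors, none by plain library totals. EDAR and FOXI3 lie left of 0 and EDA and EDARADD right of it throughout, and the red points are EDAR with the replicate block, FOXI3 without developing replicate 1, and both with DESeq2.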

How the data were processed

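RNA of whole functional and developing teeth was read as paired ends of 59 bases from libraries of a stranded mRNA kit, per the labels' protocols. The authors deposited estimated counts per gene, 1 column per library and not normalized, made with kallisto per the submitters' processing notes. Which kallisto version, strand setting, annotation, build and filters applied is not given in the sources used here, so overlapping antisense genes cannot be told apart from their partners and no coordinates are given. Values were rounded, since 19.9% of them lay over 0.01 from a whole number. Of 22488 row names, 22407 matched a RefSeq symbol (assembly MPM_Emac_v1.0, for names alone), and the other 81 rows, at most 1.41% of a library's counts, were left out.

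Low counts were removed with filterByExpr, which left 15491 genes. Functional was compared with developing by edgeR 4.0.16 (R 4.3.3) with TMM scaling, the quasi-likelihood test over all 15491 genes and Benjamini-Hochberg adjustment, with a threshold of 0.05. Each edgeR standard error is the fitted log2 difference over the root of its F, and 95% intervals use the same degrees of freedom. DESeq2 standard errors are those of its Wald test. CPM are counts per 1e6 of TMM-scaled library sizes over the tested genes. Alternatives were DESeq2 1.42.0, RLE size factors, no filter, the unmatched rows kept, sex as a covariate, the female libraries alone, a replicate block and each library left out. The test was checked on simulated counts.

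Members and gene lists were chosen with earlier results of these data known. Genes named were the members, a fixed set of pathway genes, at most 4 genes of each pathway list that passed the test, and the 3 genes with the highest Pearson r to each member over log2 CPM (prior count 2). Some genes that this rule names are left out here. Other genes named were chosen after their values were seen. The replicate numbers are shared by both groups. Over all tested genes, deviations from the group means correlated between same-numbered libraries at 0.23, 0.16, 0.31 and 0.68 for numbers 1 to 4. Functional replicate 3 correlated with developing replicate 1 at 0.41, so whether the numbers mark pairs is not settled. The test with all libraries did not pair them, and the replicate block was an alternative.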

Additional observations from a re-analysis of the deposited data

Results flagged for a closer look

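In each group of 4 libraries, the levels of 34 genes (the members and the tested pathway and epithelial or enamel genes whose values are given singly) were examined for a library far from the other 3 for their range. Of these 68 groups 9 held one, where chance gives about 1 in 20 for independent groups of normal values. The genes share the same libraries and some were chosen after their values were seen, so the 2 rates are not comparable. EDA was at 44.8 CPM in developing replicate 2, above the 32.5 to 34.0 CPM of the other developing libraries. Without that library the log2 fold change of EDA was 0.40 ± 0.11 and its adjusted p was 0.0868. EDA2R was at 25.2 CPM in functional replicate 1, against 11.3 to 13.7 CPM in the other functional libraries, and without it the log2 fold change of EDA2R was -1.72 ± 0.34 (adjusted p = 0.0634). SHH was at 14.1 CPM in the same functional library, against at most 0.57 CPM in the others, and without it SHH passed edgeR's test (adjusted p = 0.0248). LEF1 was at 22.7 CPM in developing replicate 4, against 16.5 to 17.4 CPM in the other developing libraries. AMELX was at 470.0 CPM and ELF3 at 286 CPM in functional replicate 1, against at most 3.91 and 107 CPM in the other functional libraries. TNFAIP3 was at 10.0 CPM in functional replicate 4, against 7.79 to 8.11 CPM in the others, and without it the adjusted p of TNFAIP3 was 0.0641. MAP3K7 was at 152 CPM in functional replicate 4, against 168 to 171 CPM in the others. CHUK was at 61.0 CPM in functional replicate 2, against 76.0 to 78.1 CPM in the others.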

How the results depend on the processing

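Under RLE size factors, no filter, unmatched rows kept and sex as a covariate no member crossed the threshold. EDAR passed with the replicate block (-2.07) and in DESeq2 (-2.16), where FOXI3 passed too (-1.99). Leaving out 1 library gave between -2.30 and -1.46 for FOXI3, with a call without developing replicate 1. The replicate block changed no call of EDA, EDARADD or FOXI3. Genes called lower (312 with all libraries) were 151 with the replicate block, 2 in the female libraries, 959 in DESeq2 and between 5 and 457 without 1 library. Those called higher (124) were 69, 1, 721 and between 2 and 184 in the same order, and 246 with sex as a covariate. The lower counts were 123, 9, 5 and 6 without functional replicates 1 to 4, and 22 and 41 without developing replicates 3 and 4; the higher counts there were 45, 7, 7, 2, 7 and 12. Pathway genes called lower (5) were 3 with the block, 0 in the female libraries, 8 in DESeq2 and between 0 and 6 without 1 library. Pathway genes called higher (0) were between 0 and 1 without 1 library, the 1 being CDKN1A without developing replicate 2. The cause of these changes was not tested, and fits without a library have fewer samples. EDARADD had the fewest counts of the members, at 31 to 59 per library.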

Other observations

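With TMM scaling the 11 epithelial markers did not move together. Between functional and developing teeth, 6 had a negative and 5 a positive log2 fold change. By counts over plain library totals all but ELF3 would be lower on average in functional teeth, so this split rests on the scaling. At an unadjusted p under 0.05 there were 2 lower (ITGB4 and CLDN1) and 1 higher (ELF3), beside 12.8% and 9.53% of all tested genes. The integrin gene ITGB4 had 168, 99.4, 78.2 and 130 CPM in functional replicates 1 to 4, and 118, 286, 306 and 712 CPM in developing replicates 1 to 4 (log2 fold change -1.58 ± 0.50, adjusted p = 0.127). CLDN1 had 152, 58.8, 61.1 and 116 CPM in functional replicates 1 to 4, and 161, 124, 1088 and 630 CPM in developing replicates 1 to 4 (log2 fold change -2.37 ± 0.72, adjusted p = 0.114). Both overlapped between groups, and developing replicates 3 and 4 were the highest for both, as for EDAR. The hemidesmosome collagen gene COL17A1 had a mean of 838 CPM over functional libraries, against 594 CPM over developing ones (log2 fold change 0.50 ± 0.26, adjusted p = 0.305). These genes were chosen after their values were seen.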
